A study of Drosophila melanogaster with 2 samples.

Results

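The proteasome subunit genes of the fly are the protein-coding genes whose symbol starts with Rpn, Rpt, Prosalpha or Prosbeta followed by a digit, 48 of the 13945 protein-coding genes annotated on the main chromosome arms. Of these, 32 carry no suffix and encode the general subunits, and 16 end in R, T, T1, T2, R1 or R2 and are paralogs of a general subunit. The rule for membership uses the symbol and no measured value, although the gene family was taken up with earlier results of these data known. The data are chromatin immunoprecipitation sequencing (ChIP-seq) peak lists for amos, a proneural basic helix-loop-helix transcription factor. Whole Drosophila melanogaster embryos of the strain amos-GFP, collected from 0 to 18 hours, carried an insertion that makes an amos-eGFP fusion, and the chromatin was recovered with an antibody to GFP. There were 2 biological replicates of this 1 group, each with its own peak list, and the pooled reads gave a further list. All cells of the embryo contributed to each sample, and a peak list from embryos without the fusion was not analysed here.

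The proteasome degrades proteins tagged with ubiquitin. Its core particle stacks rings of alpha subunits, which gate the entrance, on rings of beta subunits, some of which carry the protease sites. A regulatory particle caps the core. Its base holds the Rpt ATPases that unfold substrates and the ubiquitin receptors, and its lid holds the subunit that removes ubiquitin. Several paralogs, among them those marked T, are known for expression in the testis, whereas the general subunits are made in most cells. Amos is known as a factor of sensory organ precursors that binds E-boxes together with its partner Daughterless.

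A gene was counted as having a promoter summit where a listed peak had its highest point at most 500 bp from where any of its protein-coding transcripts starts (the transcription start site, TSS). In the pooled list 27 of the 32 general subunit genes (84.4%) had one, beside 37.3% of all protein-coding genes. Of the 16 paralogs, 2 (12.5%) had one. The replicate 1 list gave 26 general genes (81.2%) against a background of 39.6%, and the replicate 2 list gave 18 (56.2%) against 20.6%. Paralogs numbered 2 in replicate 1 and 1 in replicate 2. Over the 2 replicates the share was 68.8% ± 17.7 (SD, n = 2) for general genes, 9.38% ± 4.42 for paralogs and 30.1% ± 13.4 for all protein-coding genes. In the conservative pooled list, which is shorter (3116 peaks beside 5860), 22 general genes and 1 paralog had a promoter summit, against a background of 23.8%. Among those 22, Prosbeta3, Rpn1, Rpn3 and Rpt4 had no summit in the replicate 2 list, so not all of them were listed in both replicates. General genes lay above and paralogs below the background in every one of these lists. The gap between general genes and paralogs was larger than the spread between replicates of either set, and no test was run, because the genes share 2 samples.

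**Figure D1:**
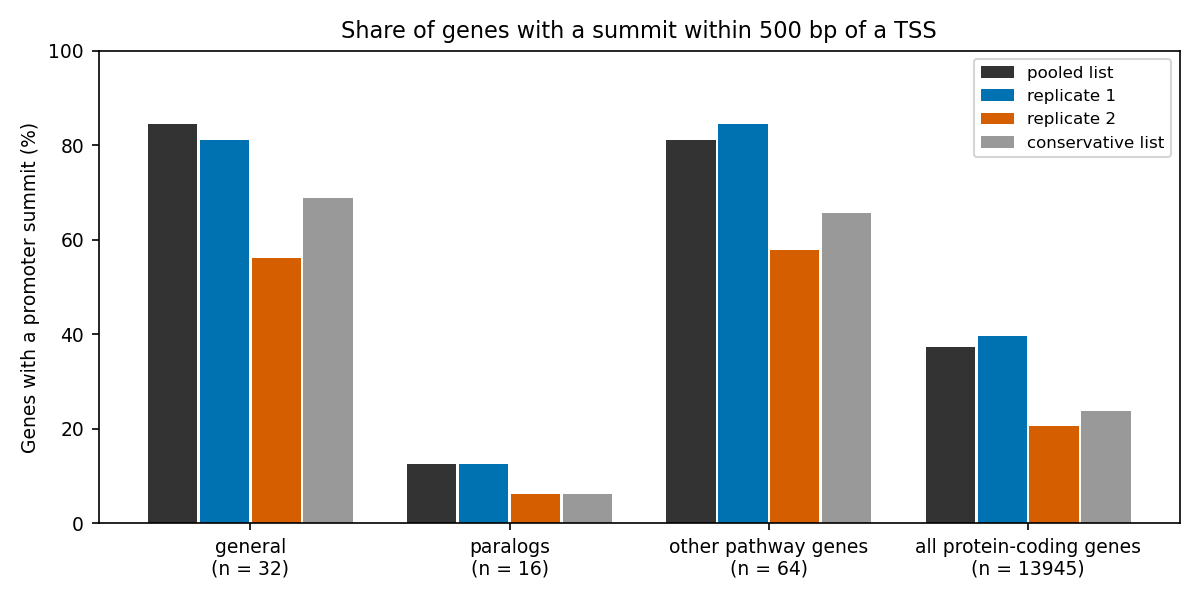
Bars give the percentage of genes with a summit within 500 bp of a TSS, for the general subunit genes, the paralogs, 64 other genes of the ubiquitin-proteasome pathway and all protein-coding genes, in the pooled, replicate 1, replicate 2 and conservative lists. General subunits reach 84.4% in the pooled list where all protein-coding genes reach 37.3% and the paralogs 12.5%.

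The sequences under the summits differ in the letters they hold, both among general genes and among paralogs, and a few are shown as examples of each kind. Capitals mark the letters CGATAG, the core bound by the insulator protein BEAF-32, and TATCGATA, the DNA replication-related element (DRE) bound by DREF, on either strand. The letters of the motifs can overlap. Each stretch is the part of a 101 bp window around the pooled summit that lies outside annotated exons, read 5′ to 3′ on the strand of the gene from Release 6 of the genome (dm6). Rpn2, a scaffold of the base, is shown from chr3R:29153437-29153523 on the plus strand as a summit with CGATAG only.
Rpn2: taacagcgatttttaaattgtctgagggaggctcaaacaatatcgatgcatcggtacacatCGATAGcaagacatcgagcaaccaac
Prosbeta2, which carries the trypsin-like protease site, is shown from chr3L:14999676-14999776 on the plus strand as a summit with DRE letters only.
Prosbeta2: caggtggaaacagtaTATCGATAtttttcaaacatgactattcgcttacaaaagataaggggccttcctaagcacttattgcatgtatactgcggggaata
Rpt6, a base ATPase, is shown from chrX:21315953-21316051 on the plus strand as a summit with neither.
Rpt6: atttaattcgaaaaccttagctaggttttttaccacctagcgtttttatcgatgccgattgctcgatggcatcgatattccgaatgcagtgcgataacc
Rpn11, the lid protease that removes ubiquitin, is shown from chr2L:5060149-5060249 on the minus strand as the summit farthest from its TSS.
Rpn11: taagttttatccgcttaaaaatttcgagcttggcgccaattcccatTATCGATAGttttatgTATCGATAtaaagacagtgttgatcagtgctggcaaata
Prosbeta2R2, a paralog of Prosbeta2, is shown from chr3R:5219588-5219656 on the minus strand as 1 of the 2 paralogs with a summit.
Prosbeta2R2: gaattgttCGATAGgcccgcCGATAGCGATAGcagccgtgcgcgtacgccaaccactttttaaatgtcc
The lid gene Rpn12, at chr3L:16582928-16583027 on the plus strand, and its paralog Rpn12R, at chr3L:15042571-15042670 on the minus strand, are shown as the 100 bases before the TSS of a parent with a summit and of a paralog without one.
Rpn12: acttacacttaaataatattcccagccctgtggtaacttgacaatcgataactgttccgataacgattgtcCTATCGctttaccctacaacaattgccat
Rpn12R: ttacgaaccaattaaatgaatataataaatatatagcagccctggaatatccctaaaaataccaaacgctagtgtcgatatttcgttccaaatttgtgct

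Among the 27 general genes the pooled peak signal, a height that the authors' peak caller assigned, ran from 57.0 to 3036 with a median of 280.0. The median over all 5208 genes with a promoter summit was 178.1. As a percentile within the 5860 pooled peaks, the general genes had a median of 73.9, all genes with a summit 62.8 and the paralogs 51.1. In the top decile of the pooled peaks lay 7 of the 27 general genes (25.9%) and 15.5% of all genes with a summit. The median percentile of general genes was 78.3 in replicate 1, where all genes had 65.3, and 63.3 in replicate 2, where all genes had 56.3. Over the 18 general genes with a summit in all 3 lists, the pooled signal was close to the sum of the replicates' signals. The ratio was 0.932 to 1.02 (median 1.0). The pooled value therefore adds nothing independent of the replicates.

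The alpha ring had 5 of its 7 general genes with a pooled promoter summit. Prosalpha7 was the highest of them, with a signal of 1160 in the pooled list (rank 166), 887.0 in replicate 1 and 281.3 in replicate 2. Its summit lay 36 bp upstream of the TSS and its window held CGATAG 3 times. Prosalpha6 had 340.8 in the pooled list and 249.8 in replicate 1, with no summit in the replicate 2 list. Prosalpha4 (328.9 in the pooled list), Prosalpha3 (280.0) and Prosalpha5 (191.6) had a summit in both replicate lists. In replicate 1 these 3 genes had signals of 243.2, 170.0 and 133.1, and in replicate 2 signals of 83.95, 110.2 and 55.28. Prosalpha5 was the lowest of the 3 in every list, whereas Prosalpha4 and Prosalpha3 changed places between the replicates. Prosalpha1 and Prosalpha2 had no promoter summit in any of the lists.

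In the beta ring 6 of 7 general genes had a summit. The genes of the subunits with protease sites were the 3 highest: Prosbeta1, the caspase-like subunit, had 955.9 in the pooled list, 590.3 in replicate 1 and 354.8 in replicate 2. Prosbeta5, the chymotrypsin-like subunit, had 645.9, 361.2 and 279.8 in the same lists. Prosbeta2 had 463.3, 310.5 and 158.9. The 3 kept this order in both replicates. The nearest TSS to the Prosbeta1 summit was that of Rrp42, and to the Prosbeta2 summit that of mRpL39. A TSS of dgo lay within 500 bp of the Prosbeta5 summit, so these signals may not belong to the 3 genes alone. Prosbeta2 carried a further pooled summit of 310.1 within 500 bp of its TSS. Among the structural beta subunits, Prosbeta7 had a pooled signal of 250.1 and a replicate 1 signal of 166.5, and Prosbeta3 had 78.83 and 48.0, each with no summit in replicate 2. Prosbeta6 had 177.2 in the pooled list, 131.6 in replicate 1 and 46.63 in replicate 2. Prosbeta4 had no promoter summit in any list.

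All 10 base genes had a pooled promoter summit, and the same 10 had one in replicate 1, while 6 had one in replicate 2. Rpn10, a ubiquitin receptor, led the base with 1729 in the pooled list (rank 54), 1082 in replicate 1 and 652.5 in replicate 2. The scaffold gene Rpn2 had 830.5, 593.8 and 231.3, and its fellow scaffold Rpn1 had 150.7 and 107.3 with no summit in replicate 2. The ubiquitin receptor gene Rpn13 had 123.2 in the pooled list and 106.0 in replicate 1, and none in replicate 2. The 6 ATPase genes spread widely. Rpt1 had pooled, replicate 1 and replicate 2 signals of 673.8, 495.6 and 180.4. Rpt5 had 503.0, 329.3 and 181.9, so that Rpt1 was the higher in replicate 1 and nearly equal to Rpt5 in replicate 2. Rpt6 had 374.2, 302.3 and 71.08, and Rpt3 had 274.6, 165.1 and 124.7, so that Rpt6 and Rpt3 changed places between the replicates. The ATPase genes with the lowest pooled signals, Rpt2 at 79.07 and Rpt4 at 57.0, had 43.51 and 42.37 in replicate 1 and no summit in replicate 2.

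The lid had 6 of 8 genes with a pooled summit and held both the highest and some of the lowest values. Rpn6, a lid scaffold subunit, had the highest signal of all proteasome genes: 3036 in the pooled list (rank 6), 1997 in replicate 1 (rank 9) and 1038 in replicate 2 (rank 5). The summit, on arm 2R, lay 91 bp upstream of a TSS that 2 of its 3 transcripts use and 548 bp inside the annotated 5′ end of the gene, in an intron. A TSS of ave, a gene on the other strand, also lay within 500 bp of that summit, so the signal may not belong to Rpn6 alone. Rpn12 followed with 453.3 in the pooled list, 371.6 in replicate 1 and 71.52 in replicate 2. Rpn5 had 223.0, 125.5 and 94.57, and thus stood above Rpn12 in replicate 2. Rpn11 had 104.8, 76.35 and 36.03. Rpn3 had 90.64 in the pooled list, 66.25 in replicate 1 and none in replicate 2. Rpn9 was listed in the pooled list alone, at 58.6. The q values of Rpn9 (0.117) and Rpt4 (0.135) in the pooled list were above 0.05, and the other 25 general genes were at or below it. Rpn7 and Rpn8 had no promoter summit.

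**Figure D2:**
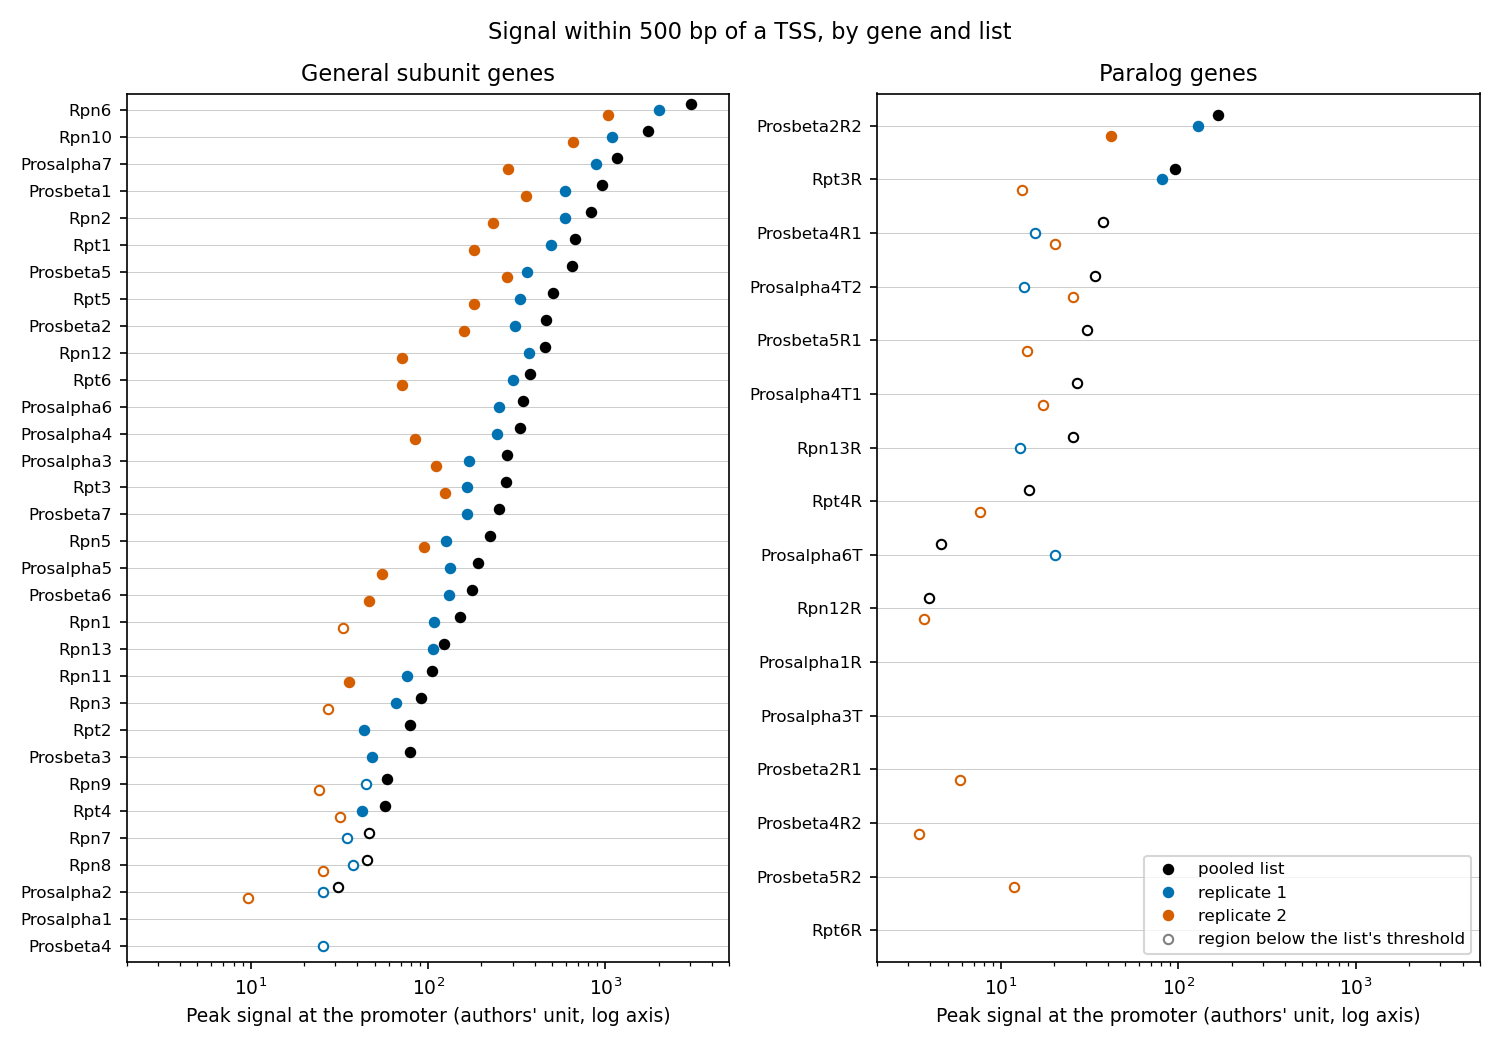
Each row is a gene and each point its highest peak signal within 500 bp of a TSS, on a log axis in the unit of the authors' peak caller, with black for the pooled list, blue for replicate 1 and orange for replicate 2. Open points are regions of the ranked lists that did not enter the thresholded list. General genes run from 57.0 to 3036 in the pooled list, and the 2 paralogs with a listed peak stand at 166.3 and 95.71.

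The replicate lists differed in length, with 6214 peaks in replicate 1 and 2973 in replicate 2, and the proteasome genes followed that difference. Of the 32 general genes, 18 had a summit in both replicates, 8 in replicate 1 alone, 0 in replicate 2 alone and 6 in neither. Over all protein-coding genes 19.4% had one in both, 20.2% in replicate 1 alone and 1.24% in replicate 2 alone. The 8 genes in replicate 1 alone were Prosalpha6, Prosbeta3, Prosbeta7, Rpn1, Rpn13, Rpn3, Rpt2 and Rpt4. In the 18 genes with both, replicate 2 signals were 0.192 to 0.775 times those of replicate 1, with a median of 0.492, and over all 1868 such peaks the median was 0.5. Spearman's rho between the replicates was 0.856 over these 18 peaks and 0.803 over the 1868, and the summits lay a median of 14.0 bp apart (at most 72 bp). These are descriptions across genes of 2 libraries, and genes are not independent replicates.

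Some genes absent from the replicate 2 list had no weaker region there either. The authors' ranked lists also hold weak regions, down to a signal near 2. In the ranked list of replicate 2 no region had its summit within 500 bp of Prosalpha6, Prosbeta7, Rpn13, Rpt2 or Prosbeta3, and none overlapped their pooled peaks. The nearest region to Prosalpha6 lay 20330 bp away, although its replicate 1 signal was 249.8. Among the 3247 protein-coding genes with a pooled promoter signal at least that of Rpn13, 13.1% had no such region in replicate 2 and 0.0616% had none in replicate 1. Of the 21 general genes above the median pooled signal (119.2), Prosalpha6, Prosbeta7 and Rpn13 had none in replicate 2. That share is near the one over all such genes. Rpt2 (79.07) and Prosbeta3 (78.83) had pooled signals below that of Rpn13. For Rpn1, Rpn3 and Rpt4 a region below the threshold was present. The cause of these gaps was not tested.

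The 5 general genes without a promoter summit were Prosalpha1, Prosalpha2, Prosbeta4, Rpn7 and Rpn8. Rpn8, the structural partner of Rpn11 in the lid, fell just outside the distance rule. Its nearest listed summit lay 560 bp away with a signal of 55.98, in the gene body, but the TSS nearest to that summit was that of Slik. The member just inside the rule was Rpn11, at 409 bp. Below the threshold of the pooled list, Rpn7 had a region of 46.51, Rpn8 one of 45.24 and Prosalpha2 one of 31.05. Prosbeta4 had a region only in the ranked list of replicate 1, at 25.69. These values lie below the 57.0 of Rpt4, the lowest listed general gene. Of the 8737 protein-coding genes with no pooled summit, 6256 had a region in the pooled ranked list, with a median of 24.79.

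Prosalpha1 was the single general gene with no region in any of the 3 ranked lists used. Among the paralogs the same held for Prosalpha3T, Rpt6R and Prosalpha1R, the paralog of Prosalpha1. Prosalpha1 and Prosalpha1R lie 1734 bp apart on arm 2R and encode identical proteins of 244 residues. The genome around them holds an unbroken stretch of 3112 bases that is the same for both copies, from 1365 bases before the start codon to 1747 bases from it on, and every annotated TSS of both genes is inside. A read that falls within the stretch matches both places equally well. How the authors treated such reads is not given in the sources used here, so the absence of a peak at Prosalpha1 and Prosalpha1R is uncertain, and the part of the duplicated sequence in it was not tested.

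The paralogs with a summit were Prosbeta2R2 and Rpt3R. Prosbeta2R2 had 166.3 in the pooled list (rank 2299), 129.4 in replicate 1 and 41.81 in replicate 2. Rpt3R, a paralog of the ATPase gene Rpt3, had 95.71 (rank 3428) and 80.57 in replicate 1, and no summit in the replicate 2 list. The parents stood higher in the pooled list, Prosbeta2 at 463.3 and Rpt3 at 274.6. The Prosbeta2R2 summit lay 110 bp upstream of its own TSS but 19 bp from that of CG1116, the gene that points the other way. The Rpt3R summit was nearest to a TSS of its own, 42 bp upstream, in a window with TATCGATA. That TSS serves 1 of its 2 transcripts and lies 296 bp inside the gene. A TSS of Alg12, on the other strand, also lay within 500 bp of the Rpt3R summit.

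None of the other 14 paralogs had a promoter summit in any list, and their nearest listed summits were 5761 to 48293 bp away. In the pooled ranked list 8 of the 14 had a region, between 3.927 and 37.79 with a median of 26.14, close to the 24.79 of all genes without a summit. Prosbeta4R1 had the highest, at 37.79, followed by Prosalpha4T2 at 33.67, Prosbeta5R1 at 30.48, Prosalpha4T1 at 26.95 and Rpn13R at 25.33. Rpt4R had 14.3, Prosalpha6T 4.565 and Rpn12R 3.927. The other 6 were Prosalpha1R, Prosalpha3T, Prosbeta2R1, Prosbeta4R2, Prosbeta5R2 and Rpt6R, which had no region there.

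Each paralog was set beside its parent. The 16 parent and paralog pairs involve 12 parents, and protein identity in a global alignment ranged from 38.4% to 100% with a median of 60.6%. In 13 pairs the parent had a summit, in 2 the paralog had one, and in both of those the parent had one too. Rpt6R is 88.7% identical to Rpt6 and Rpt4R 82.1% identical to Rpt4, and neither had a summit, while Rpt3R at 81.7% and Prosbeta2R2 at 45.3% did. General genes with a paralog had a summit in 10 of 12 cases and those without a paralog in 17 of 20.

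Proteasome summits sat close to the TSS, mostly on its upstream side, as did those of protein-coding genes in general. Over all 5208 genes with a summit the median position was 45 bp upstream, with 4160 upstream and 1026 downstream. The median position of the 27 general genes was 42 bp upstream, with 23 upstream and 4 downstream, and 21 (77.8%) were within 100 bp, beside 70.2% of all genes with a summit. The 4 downstream were Prosalpha6 at 6 bp, Rpn10 at 21 bp, Prosbeta3 at 41 bp and Rpn9 at 134 bp. Farthest upstream were Rpn11 at 409 bp, Rpt3 at 341 bp and Rpn5 at 330 bp. By annotation 17 of the 27 summits were intergenic, 6 lay in a 5′ UTR and 4 in an intron. No shares over all genes are given for this split. The 29 members with a summit had 29 distinct peaks.

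**Figure D3:**
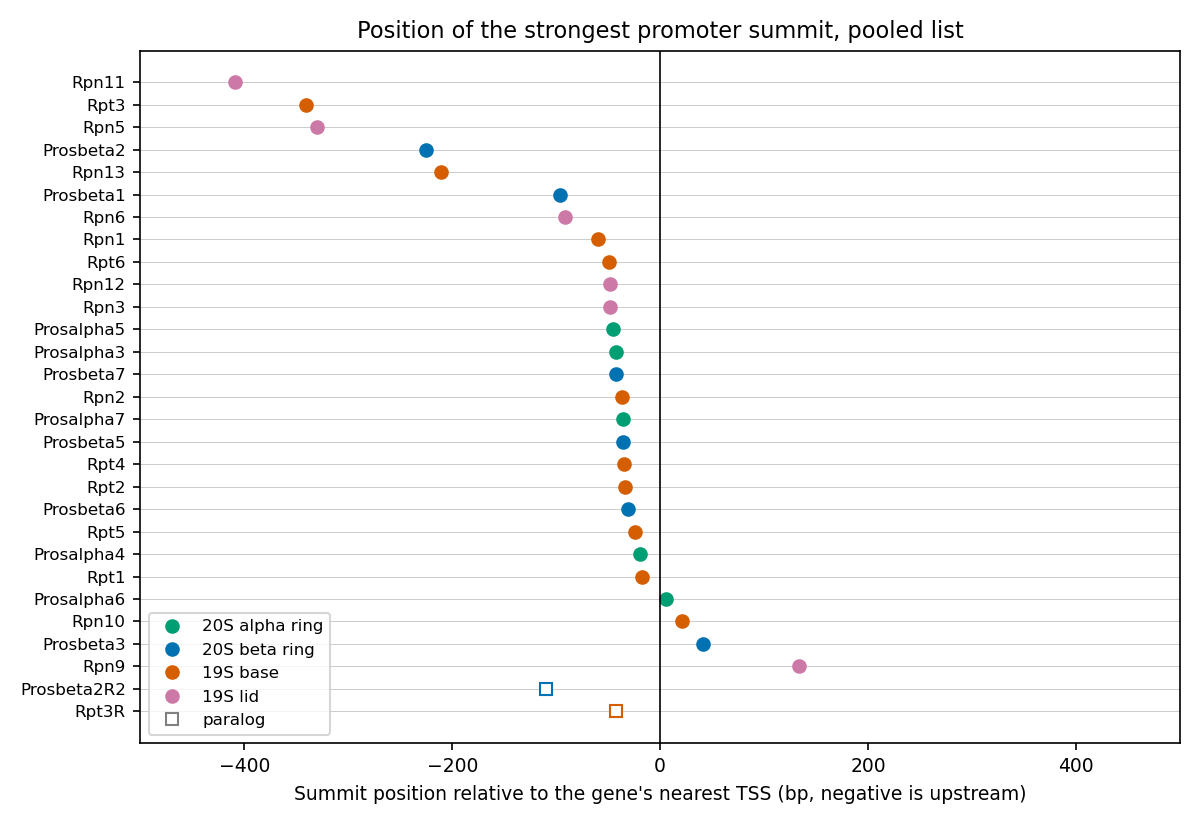
Each point gives the distance in bp from the gene's nearest TSS to its strongest pooled summit, with negative values upstream. Filled circles are general genes coloured by subcomplex and open squares are the 2 paralogs. Most points lie a short way upstream of the TSS, and Rpn11 is the farthest at 409 bp.

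The general genes often shared their start region with a neighbour. A protein-coding gene on the other strand started within 500 bp upstream of 21 of the 32 general genes (65.6%), of 3 of the 16 paralogs (18.8%) and of 27.4% of all protein-coding genes. For 8 of the 27 summits (29.6%, beside 24.9% over all genes with a summit) another gene's TSS was nearer than the member's own. Among them were the summits of Prosbeta1, Prosbeta2, Rpn13, Rpn5, Rpt3, Rpt4 and Rpt5, so the peak cannot be assigned to one gene of the pair. Among genes with no such neighbour, 10 of 11 general genes had a summit, 0 of 13 paralogs and 26.5% of all protein-coding genes. At 1 of these 10, Prosalpha3, a TSS of dgt3 also lay within 500 bp of the summit. Among genes with such a neighbour the shares were 81.0% for general genes and 66.2% for all, and 2 of the 3 paralogs. The paralog with such a neighbour and no summit is Prosalpha1R.

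Within the 21 general genes that have a divergent neighbour, those without a summit had the wider gaps. The distance between the divergent TSSs was 42 to 375 bp (median 178) for the 17 with a summit and 325 to 417 bp (median 392.5) for the 4 without one, which are Prosalpha1, Prosbeta4, Rpn7 and Rpn8. All 5 with a gap of up to 100 bp and all 10 with a gap from 101 to 300 bp had a summit, and from 301 to 500 bp 2 of 6 had one. Over all protein-coding genes the share was 73.5% up to 100 bp, 61.6% from 101 to 300 bp and 67.6% from 301 to 500 bp. The split by gap was made after the values had been seen and is a description only.

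Paralogs also differed from the general genes in structure. A single exon made up 37.5% of paralogs, 12.5% of general genes and 15.2% of all protein-coding genes. Over the whole genome 18.4% of single-exon genes and 40.8% of genes with more exons had a promoter summit. Rpn12 is a single-exon general gene with a listed peak, and its paralog Rpn12R is a single-exon gene with none.

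The 101 bp summit windows of the general genes held the BEAF-32 and DRE letters and few E-boxes. CGATAG was present in 13 of 27 windows (48.1%), beside 31.4% of all 4352 promoter summit windows and 71.3% of those in the top decile of signal. TATCGATA was present in 9 windows (33.3%), beside 17.0%, and 16 windows (59.3%) held at least 1 of these, counting 6 with both, beside 40.9% of the 5208 genes with a summit. The other 11 general windows held neither. The E-box CANNTG, the sequence class that basic helix-loop-helix factors bind, was present in 6 windows (22.2%), beside 39.3% of all promoter summit windows. Its form CAGCTG was present in 0 of 27, beside 9.79%. GGTCACACT, the letters bound by the promoter factor M1BP, was present in 0 of 27, beside 4.64%. TGACNNNGC, the antioxidant response element bound by Cnc, a known activator of proteasome genes, was present in 1 window (3.7%), that of Prosbeta7, beside 4.55%. Both strands were searched, and a match is a run of letters rather than a site shown to be bound.

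Among the general genes the windows with CGATAG had the higher signals as a set: the 13 with it had a median of 503.0 (104.8 to 1729) and the 14 without it 171.2 (57.0 to 3036). The same split over all protein-coding genes with a summit gave 398.0 for 1858 genes and 117.2 for 3350. Rpn6, the highest of all, is among the 14 without, since its nearest CGATAG lay 55 bp from the summit. The 9 general windows with TATCGATA had a median of 274.6 and the 18 without it 304.4, while over all genes the order was the opposite, 378.0 with it and 145.4 without. The 6 general windows with an E-box had 363.9 and the 21 without 280.0, again opposite to the 159.2 and 191.5 over all genes. For the general genes the ranges overlapped in each of these splits.

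Promoters, from 250 bases before to 50 bases after the 5′ end of the gene, were searched for the same letters apart from any peak. The pooled summits of Rpn6, Prosbeta7, Rpt2 and the paralog Rpt3R were nearest to a TSS inside the gene and lay outside this stretch. Those of Rpn11, Rpt3, Rpn5 and Rpn9 were outside it too. Rpt3R counts here as lacking TATCGATA, which its summit window held. GGTCACACT and TGACNNNGC, in 0 and 1 of the 27 summit windows, were too rare there to tell from the shares of all promoter summits. Each was in 5 of the 32 general promoters, above the share of all promoters. CGATAG was in 37.5% of general promoters, 12.5% of paralog promoters and 19.6% of all. TATCGATA was in 37.5%, 0% and 9.37%, and GGTCACACT in 15.6%, 0% and 6.05%. The E-box was in 71.9%, 68.8% and 77.3%. TGACNNNGC was in 15.6%, 6.25% and 8.64%, TATAAA in 40.6%, 31.2% and 45.9%, and GAGAGAG, the letters of GAGA factor, in 0%, 12.5% and 5.87%. Of the 5 general promoters without a summit 0 held CGATAG, against 12 of the 27 with one (44.4%), where all protein-coding genes had 8.58% without a summit and 38.0% with one. TATCGATA was in 1 of those 5 and in 11 of the 27 (40.7%), beside 2.06% and 21.6% over all genes. GGTCACACT and TGACNNNGC ran the other way, each in 2 of the 5 (40.0%) and 3 of the 27 (11.1%). Over all genes without and with a summit GGTCACACT was in 3.65% and 10.1%, and TGACNNNGC in 8.5% and 8.87%.

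**Figure D4:**
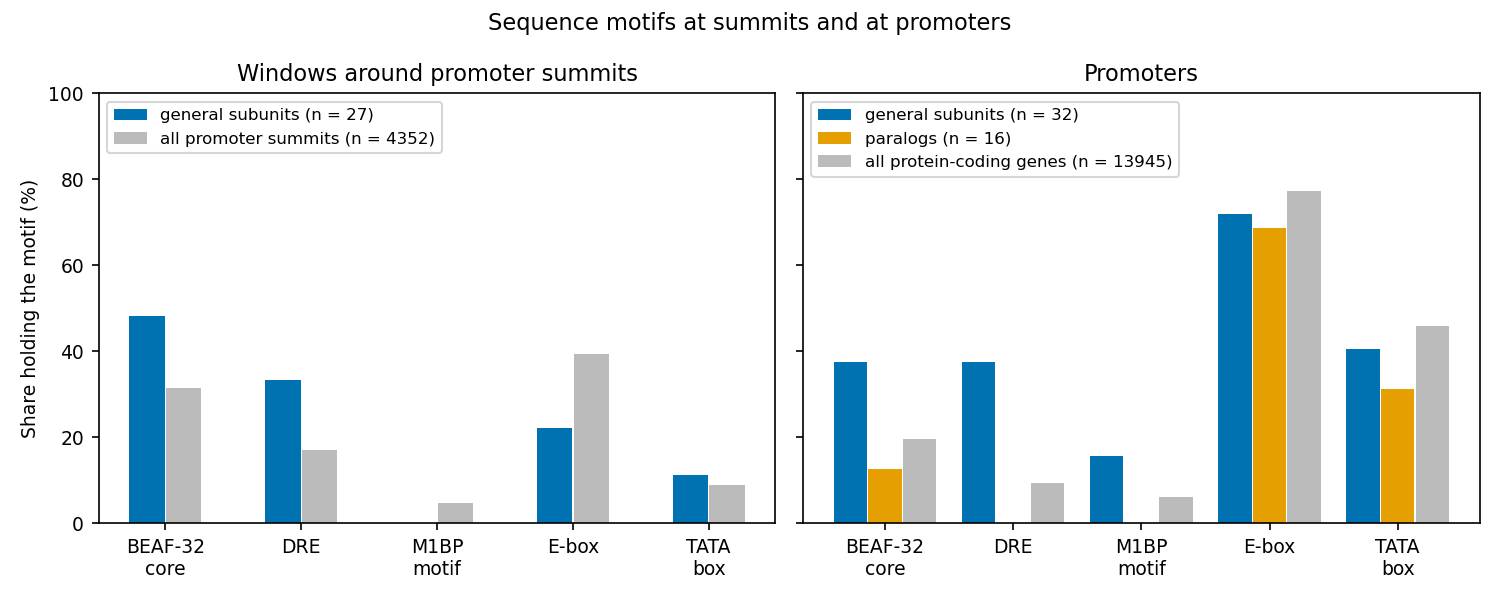
Bars give the percentage of sequences holding each motif on either strand, on the left in 101 bp windows around promoter summits and on the right in promoters. BEAF-32 core is CGATAG, DRE is TATCGATA, the M1BP motif is GGTCACACT, E-box is CANNTG and TATA box is TATAAA. General subunits exceed all promoter summits for the BEAF-32 core (48.1% and 31.4%) and the DRE (33.3% and 17.0%) and lie below them for the E-box (22.2% and 39.3%).

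Other genes of the ubiquitin-proteasome pathway were also often listed. Of 64 such genes in 7 lists, 52 (81.2%) had a pooled promoter summit, beside 37.3% of all protein-coding genes. Their median percentile was 83.0, where the general subunits had 84.4% with a summit and a median of 73.9. The share of the 64 was 84.4% in replicate 1 and 57.8% in replicate 2, beside 39.6% and 20.6% of all protein-coding genes. The regulators and assembly factors of the proteasome had one in 10 of 13, among them rngo (696.9) and PI31 (640.9), and cnc had 180.4. Sem1, the small lid subunit whose symbol falls outside the naming rule, had none in any list, and Pngl and Rad23 had one in replicate 1 alone (67.24 and 45.49). The p97 segregase, which extracts ubiquitin-tagged proteins, had 5 of 5, led by its ATPase TER94 at 1898 in the pooled list, 1138 in replicate 1 and 768.7 in replicate 2. Its partner gene Plap had a summit in replicate 2 (193.0) and in the pooled list (406.5) but not in replicate 1. Ubiquitin and its activating enzyme had 4 of 5, with Uba1 at 324.2 and RpL40 without one.

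Among the conjugating enzymes 8 of 12 had a summit, led by eff (794.8), and Ubc6, Ubc84D and vih were among those with none in the pooled list. The cullin-RING ligases had 11 of 12, with Cul4 at 1641 and SkpA at 1048, and Roc1b was the gene without one. The COP9 signalosome, a complex related to the lid that removes Nedd8 from cullins, had 7 of 9, led by CSN8 at 745.7, while CSN1a and CSN7 had none. The HECT ligases had 7 of 8, led by Ube3a at 1502 and Su(dx) at 1080, and Herc4 had none. None of these 64 genes reached the 3036 of Rpn6 in the pooled list. Another gene's TSS also lay within 500 bp of the summits of rngo, Plap, eff, Cul4, SkpA, CSN8, Ube3a and Su(dx). Those signals may not belong to the named genes alone. No other gene's TSS was that near for PI31, cnc, TER94 and Uba1.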

How the data were processed

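The samples were 2 ChIP-seq replicates, with chromatin sonicated to fragments of 200 to 800 bp per the labels. The authors called peaks on dm6 and compared them by the irreproducible discovery rate (IDR), per the file headers and labels. The sources used here name neither the aligner nor the peak caller. Each deposited list gives the authors' signal per peak and −log10 q values. The deposited ranked lists also hold regions below the threshold. Read depth is unknown, so no interval was computed. Arm lengths of the Release 6 genome and the peaks' ends were checked against each other. Genes and TSSs came from Ensembl release 115, and Python 3.11.15 and Biopython 1.88 served for the analysis. Positions count from 1. The strongest summit within 500 bp of a TSS was used, and percentiles are the share of a list's peaks with lower signal. Of 8 motifs, both strands were searched. The assignment of summits and the motif search were tested on simulated data. All members are accounted for, and those named with values follow a rule: each paralog, each general gene without a summit or in only 1 replicate list, the highest signals, and for each of the 7 other gene lists the highest and up to 4 without a summit. Of 66 entries in these lists, 62 matched by symbol and 2 by an older name, 1 was a duplicate and 1 was not found. The members and lists were chosen with earlier results of these data known. No test was made, since both replicates belong to 1 group. Alternatives were the conservative list, each replicate alone, other distances (250 and 1000 bp), only the 5′ end of the gene, peaks with q of at most 0.05, peaks above the median signal and a window of 100 bp to each side. Some named items are not reported here.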

Additional observations from a re-analysis of the deposited data

How the results depend on the processing

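Of 41 values recomputed under other settings, 34 stayed within 1.5 times the reported count or, for the median percentile, within 1 SD of the replicates (10.6), and 7 did not. That SD was computed from the replicate-alone percentiles, which are among the values judged, so it is no independent limit for them. The 18 general genes found with replicate 2 alone lay at the limit of the 1.5 times rule. The general genes with a promoter summit numbered 18 to 28 under all settings, 18 with replicate 2 alone and 26 with replicate 1 alone, so replicate 1 carries much of the count. A distance of 250 bp dropped Rpn11 and Rpn5, the 5′ end of the gene alone dropped Rpn6, q of at most 0.05 dropped Rpn9 and Rpt4, and 1000 bp added Rpn8. The paralogs went from 2 to 1 in the conservative list, to 1 among peaks above the median signal, and ranged from 1 to 2 without a replicate. All protein-coding genes with a summit fell to 3321 in the conservative list and 3303 above the median signal, and ranged from 2874 to 5520 without a replicate. The median percentile of general genes was 61.5 among peaks above the median signal, a list from which the lower peaks are gone, and 63.3 to 78.3 without a replicate. Windows with CGATAG numbered 9 to 14. The causes of the other changes were not tested. Depth is unknown and there was no control list, so an absent peak is not evidence of absent binding. No paired analysis was possible because there is 1 group.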
